A study of Mus musculus with 8 samples.

Results

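The genes described here encode the relay between Toll-like receptors and the nucleus: 41 genes for LPS co-receptors, receptor adaptors, IRAK, RIP, IKK and MAP kinases and the ubiquitin enzymes that connect them. They were chosen by gene symbol from textbook roles, with earlier results of these data known. All 41 were found among the 55226 genes of the deposited table. Of these, 40 had a mean level of at least 3 over all samples and were tested with 11543 genes in all. The exception was Sarm1, an adaptor best known from neurons, which lay between -0.12 and 0.64 in the 8 samples.

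The study compared mouse bone marrow-derived macrophages, cells grown from C57BL/6 bone marrow for 7 days with 10 ng/ml M-CSF and 10% serum. The genotypes are PtipWT, called WT here, and PtipcKO, a conditional knockout of PTIP (gene Paxip1), called cKO. Cells received 100 ng/ml LPS for 0 or 6 h, giving 4 groups of 2 samples. The design text speaks of biological replicates, but the labels used here name neither the mouse behind each sample, nor how the knockout was driven, nor the age of the mice. The p-values therefore measure the spread between these samples.

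Toll-like receptor 4 senses LPS together with MD-2 (Ly96), after CD14 hands the lipid over. The receptor then recruits adaptors. TIRAP and MyD88 lead through IRAK kinases and TRAF6 to the kinase TAK1, which switches on the IKK complex and the MAP kinases. TRAM (Ticam2) and TRIF (Ticam1) lead through TRAF3 to TBK1 and IKKepsilon and on to interferon genes. Much of this relay works by phosphorylation and ubiquitin chains, which RNA levels do not measure.

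All values are rlog values, a log2 expression scale on which genes with few reads are pulled toward their mean, so differences between groups understate the change of low genes. They are not divided by transcript length, and levels are not compared between genes. A gene was called changed when its limma p-value, adjusted by the Benjamini-Hochberg method over the 11543 genes, was under 0.05. Differences are log2 values with the standard error (SE) of the model. Sequencing depth is unknown, since no read counts were used. In these bulk samples, fewer cells of a type and less RNA per cell cannot be told apart.

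Between samples of 1 group, r over genes, which are not independent replicates, was 0.987 to 0.992. Paxip1 was lower in every library labelled cKO, at 2.48 to 2.63 against 3.82 to 4.50 in the WT libraries (-1.99 at 0 h and -1.36 after LPS, limma adjusted p = 0.00686 and 0.0156). Its mean reached the limit of 3 for testing through the WT libraries, since every cKO library lay below it. The authors' deposited table called Paxip1 lower at 0 h (log2 fold change -4.75, adjusted p = 0.00196) but not after LPS (log2 fold change -4.04). The 8 macrophage markers ranged from 5.19 to 19.31, while the 4 T cell markers stayed at or below 1.11. The neutrophil genes Ly6g, Mpo and Elane stayed at or below 0.04, while the list of 6 neutrophil markers reached 8.35. The highest value was 5.07 among 4 B cell markers, 5.05 among 4 mast cell and basophil markers and 3.97 among 4 fibroblast markers. The 1 B cell marker tested fell with LPS in each genotype, and 1 of 2 mast cell and basophil markers tested rose in WT. The summed macrophage marker level was 19.16 to 19.45 in WT and 18.37 to 18.69 in cKO, a sum dominated by the lysozyme gene Lyz2. Itgam (-1.11) and Mertk (-1.10), 2 of these markers, were lower in cKO after LPS (adjusted p = 0.0178 and 0.0197). The summed level of 6 neutrophil markers, carried by S100a8 and Camp, was 6.74 to 8.03 in WT and 7.91 to 8.72 in cKO. Of 5 dendritic cell markers 3 were tested, and all 3 rose with LPS in each genotype. Their summed level, carried by Ccr7, was between 8.63 and 9.23 at 0 h and between 10.11 and 11.17 after LPS, while Siglech stayed below 0 and Flt3 at or below 1.33. The part of these markers in the differences below was not tested.

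Upstream sequences were examined because 17 members rose in both genotypes. RefSeq sequences of the 250 bases before the start of transcription (GRCm38.p6) were matched for 33 members. No sequence was available for Cd14, Ripk2, Ikbkb and Map3k8, which rose in both genotypes, or for Ly96, Ticam2, Tab1 and Mapk3. Not every rising member was therefore searched. Both strands were searched for the letters GAAANNGAA, from the interferon-stimulated response element, GGANTTNCC, from the NF-kB site, and TGANTCA, the AP-1 site. The response element letters were found for 6 of the 33 members and 8.18% of all genes. With 1 more A at their 3′ end, the form searched first, they were found for 3 members (Myd88, Mapk14 and Mapkapk3) and 3.46% of genes. The NF-kB letters were found for 2 members and 3.65% of genes, and the AP-1 letters for 3 members and 7.82% of genes. The 6 were Myd88, which rose with LPS, Mapk14 and Mapkapk3, which fell in both genotypes, Irak3, which fell in WT, Map2k7, which passed in neither, and Sarm1, which was not tested. The NF-kB letters stood upstream of Ikbkg and Map3k7, for which no LPS change was called. A match describes the letters of this window and no more. The sequences are printed to show the matched letters, in capitals, 5′ to 3′ on the strand of the gene.

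The Myd88 sequence (chr9:119340019-119340268, minus strand) lies inside the gene as GENCODE M21 draws it and holds 23 exonic bases of Myd88. The Mapk14 sequence (chr17:28692318-28692567, plus strand) lies inside the gene and outside its exons, before the later of 2 starts. The other 4 are 30 bases around the match. They are Mapkapk3 (chr9:107289397-107289426, minus strand), Irak3 (chr10:120202214-120202243, minus strand), Map3k7 (chr4:31964004-31964033, plus strand) and Ikbkg (chrX:74393080-74393109, plus strand). Those of Mapkapk3, Irak3 and Map3k7 hold 0 exonic bases, and that of Ikbkg lies within an exon of the neighbouring gene Fam3a. Mapk14, Mapkapk3 and Irak3 each have a second RefSeq start with no match of the response element letters, and Ikbkg has 4 starts with the NF-kB letters before 1.
Myd88: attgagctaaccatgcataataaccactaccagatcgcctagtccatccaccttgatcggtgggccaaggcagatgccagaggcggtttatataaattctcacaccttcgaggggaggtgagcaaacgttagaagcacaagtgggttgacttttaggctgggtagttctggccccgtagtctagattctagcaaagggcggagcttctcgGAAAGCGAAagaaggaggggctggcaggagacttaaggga
Mapk14: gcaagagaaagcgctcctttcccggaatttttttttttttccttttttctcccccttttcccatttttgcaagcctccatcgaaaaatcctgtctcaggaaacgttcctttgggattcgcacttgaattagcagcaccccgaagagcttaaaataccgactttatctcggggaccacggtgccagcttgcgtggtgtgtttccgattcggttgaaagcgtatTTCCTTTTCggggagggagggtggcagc
Mapkapk3: gtggggagtgactctTTCCCTTTCcttcag
Irak3: aaatctcccacTTCATTTTCccacctcctt
Map3k7: tccccgggtcaGGAAATTCCccgctcgggt
Ikbkg: gaccggatcagGGAGTTACCcagttgtctc

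The first question was how LPS changed the relay in each genotype. In WT macrophages 19 of the 40 tested members rose and 5 fell, against 22.5% of all tested genes higher and 19.7% lower (42.2% in either direction). In cKO macrophages 17 rose and 4 fell, against 19.6% higher and 17.5% lower (37% in either direction). The authors' deposited table called 21 members in WT and 18 in cKO, where it called 28.2% and 27.4% of the same genes. The median change of the members was 0.39 in WT and 0.44 in cKO, beside -0.01 and -0.02 over all genes tested. Since the members were chosen with earlier results known, these shares and medians describe the list and do not test it. All 17 members that rose in cKO were among the 19 that rose in WT, and 2 members, Mapk14 and Mapkapk3, fell in both. No library is shared by these comparisons, but each gene's variance estimate is. The size of the LPS response differed between genotypes for 0 members by limma's interaction test, as for 0 of all genes tested, and 1 member (Mapk14) had an unadjusted p under 0.05, as did 751 of all 11543 genes. In the plot of LPS changes by role, 4 of 12 roles held both a rise and a fall in WT, and the other 8 held rises without a fall. In cKO 3 roles held both. LPS and 0 h libraries did not overlap for 31 of the 40 members in WT and 32 in cKO. Over all genes tested the shares were 71.3% and 72.5%, so a lack of overlap was common.

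**Figure D1:**
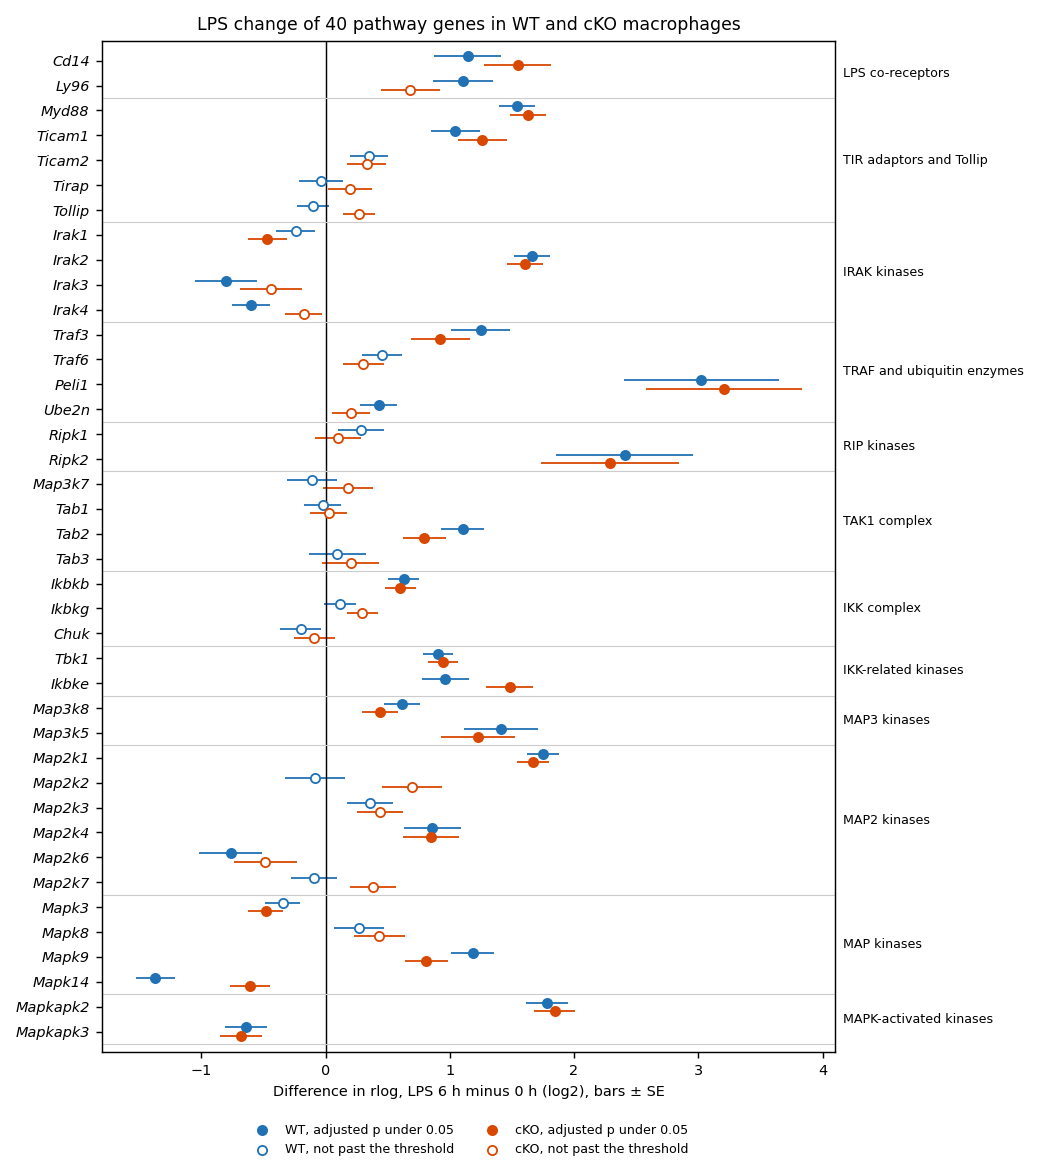
LPS change of the 40 tested genes, grouped by role: the horizontal axis is the difference in rlog (log2) between 6 h of LPS and 0 h, blue for WT and orange for cKO, with bars of ± SE. Filled points passed the threshold; Peli1 and Ripk2 stand farthest to the right in both genotypes and Mapk14 farthest to the left in WT.

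Both LPS co-receptor genes rose in WT. Cd14, on chromosome 18, was 14.87 and 14.11 in WT at 0 h and 15.82 and 15.44 after LPS. In cKO it was 13.54 and 13.44 at 0 h and 15.20 and 14.87 after LPS. LPS libraries lay above 0 h libraries in each genotype, and the cKO libraries below the WT libraries at each time. The rise was 1.14 in WT (SE 0.27, adjusted p = 0.00946) and 1.55 in cKO (SE 0.27, adjusted p = 0.0026). The WT call was lost without WT LPS replicate 1 (0.95, adjusted p = 0.0527) and under quantile normalization (0.46, adjusted p = 0.21).

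Ly96, whose protein MD-2 holds LPS in the receptor, was 7.94 and 7.24 in WT at 0 h and 8.93 and 8.46 after LPS. The cKO values were 7.62 and 7.50 at 0 h and 8.21 and 8.27 after LPS. It rose by 1.11 in WT (SE 0.24, adjusted p = 0.00623), and its difference in cKO was 0.68 (SE 0.24, adjusted p = 0.0535). The interaction was -0.42 (adjusted p = 0.847), so a smaller response in cKO was not shown. The cKO value passed in the authors' deposited table (log2 fold change 0.78, adjusted p = 0.0209) and without either WT 0 h library (adjusted p = 0.0225 and 0.0221) or either WT LPS library (adjusted p = 0.0422 and 0.0418).

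Among the adaptors, the genes of MyD88 and TRIF rose in both genotypes, while the bridging adaptors did not pass. Myd88 was 10.22 and 10.08 in WT at 0 h and 11.80 and 11.58 after LPS. In cKO it went from 9.84 and 10.13 to 11.58 and 11.65. The LPS libraries of both genotypes lay together, well above the others. The rise was 2.91-fold on this scale in WT (1.54, SE 0.14, adjusted p = 8.49e-05) and 3.10-fold in cKO (1.63, SE 0.14, adjusted p = 9.36e-05). Its exons overlap those of Acaa1a on the opposite strand, and whether reads were counted by strand is not given in the sources used here.

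Ticam1, the gene of TRIF, rose by 1.04 in WT and 1.26 in cKO (adjusted p = 0.00309 and 0.00146). Ticam2, the gene of TRAM, differed by 0.35 and 0.33 (adjusted p = 0.101 and 0.128). Tirap, the bridge from the receptor to MyD88, differed by -0.04 and 0.20. Tollip, an inhibitor of IRAK signalling, differed by -0.10 in WT and 0.27 in cKO. Neither Tirap nor Tollip passed in either genotype.

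The IRAK kinases went in opposite directions. Irak2, the kinase that sustains signalling after the first wave, was 9.29 and 9.40 in WT at 0 h and 11.19 and 10.83 after LPS. Levels in cKO went from 9.05 and 8.90 to 10.54 and 10.62. The cKO libraries lay below the WT libraries at both times. It rose by 1.66 in WT (SE 0.14, adjusted p = 6.08e-05) and 1.60 in cKO (SE 0.14, adjusted p = 0.000102).

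Irak4, the kinase that starts the cascade, was 7.48 and 7.51 in WT at 0 h and 7.00 and 6.78 after LPS. Levels in cKO were 7.69 and 7.44 at 0 h and 7.42 and 7.36 after LPS. It fell in WT (-0.60, SE 0.15, adjusted p = 0.0132) and its cKO difference was -0.18 (adjusted p = 0.399), with an interaction of 0.42 (adjusted p = 0.768). The WT call was lost without WT 0 h replicate 1 (adjusted p = 0.0514), WT 0 h replicate 2 (adjusted p = 0.0594) or WT LPS replicate 2 (adjusted p = 0.0668), and in the authors' deposited table (adjusted p = 0.112).

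Irak3, the gene of IRAK-M, an inhibitory family member, was 11.42 and 10.96 in WT at 0 h and 10.44 and 10.34 after LPS. In cKO it was 10.48 and 10.93 at 0 h and 9.94 and 10.59 after LPS, where the groups overlapped. It fell by 0.80 in WT (SE 0.25, adjusted p = 0.0306). Its cKO difference was -0.44 (adjusted p = 0.202) and passed under quantile normalization (-0.82, adjusted p = 0.0254). The WT call was lost without WT 0 h replicate 1 (-0.57, adjusted p = 0.177), WT LPS replicate 1 (adjusted p = 0.0736) or WT LPS replicate 2 (adjusted p = 0.102).

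Irak1, the partner of IRAK4 that carries the signal to TRAF6, was 6.97 and 7.00 in WT at 0 h and 6.70 and 6.79 after LPS. The cKO values were 6.97 and 6.70 at 0 h and 6.43 and 6.30 after LPS. Within each genotype the LPS libraries lay below the 0 h libraries. The WT difference was -0.24 (adjusted p = 0.254), and the cKO value fell by 0.47 with an adjusted p = 0.0482. That call was lost without any 1 of 7 libraries, all but cKO 0 h replicate 2, with an adjusted p of 0.056 to 0.244.

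Peli1 and Ripk2 had the largest rises of all members, and also the largest spread between samples. Peli1, the gene of the ubiquitin ligase Pellino-1, which acts with IRAK and RIP kinases, was 6.25 and 6.94 in WT at 0 h and 9.56 and 9.68 after LPS. Levels in cKO were 6.92 and 9.17 at 0 h and 10.78 and 11.72 after LPS. Its rise was 8.14-fold in WT (3.03, SE 0.63, adjusted p = 0.00512) and 9.24-fold in cKO (3.21, SE 0.63, adjusted p = 0.00457).

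Ripk2, the kinase that relays signals of the NOD receptors, was 5.42 and 5.71 in WT at 0 h and 7.81 and 8.14 after LPS. In cKO it was 5.68 and 7.70 at 0 h and 8.58 and 9.37 after LPS. It rose by 2.41 in WT (SE 0.55, adjusted p = 0.00841) and 2.29 in cKO (SE 0.55, adjusted p = 0.0125). With no filter on low values, neither rise passed (limma adjusted p = 0.0662 and 0.0907). The cKO call was lost without cKO LPS replicate 2 (1.89, adjusted p = 0.0921) and in the authors' deposited table (log2 fold change 2.26, adjusted p = 0.136). Its relative Ripk1, a kinase at the branch between survival and cell death, differed by 0.28 in WT and 0.10 in cKO and passed in neither.

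In both genes cKO replicate 2 stood above cKO replicate 1, before as well as after LPS. At 0 h the gap was 2.25 for Peli1 and 2.01 for Ripk2, where the median gap over all tested genes was 0.19. Gaps as large were found in 0.139% and 0.225% of tested genes. No other member had a gap over 1 in that group, and in the other 3 groups no member did.

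Of the remaining ubiquitin-linked members, Traf3, the branch point toward TBK1, rose by 1.25 in WT and 0.92 in cKO (adjusted p = 0.00337 and 0.0163). The cKO call of Traf3 was lost without any 1 of the 4 cKO libraries (adjusted p = 0.0546 to 0.0922). Ube2n, which builds lysine-linked ubiquitin chains with TRAF6, passed narrowly in WT (0.43, adjusted p = 0.0496) and not in cKO (0.20). That call was lost in 12 of 18 alternatives, among them leaving out any 1 of 7 libraries, all but WT 0 h replicate 1 (adjusted p = 0.0642 to 0.276). Traf6 differed by 0.45 in WT (adjusted p = 0.0542) and 0.30 in cKO (adjusted p = 0.181), and its WT value passed without WT LPS replicate 2 (adjusted p = 0.049).

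Within the TAK1 complex 1 of 4 members was called in each genotype, against 42.2% of all tested genes in WT and 37% in cKO. Tab2, the subunit that binds ubiquitin chains, was 6.79 and 6.94 in WT at 0 h and 7.87 and 8.07 after LPS. The cKO values went from 6.76 and 7.18 to 7.77 and 7.76. The groups did not overlap in either genotype, as in most genes tested. It rose by 1.10 in WT (SE 0.17, adjusted p = 0.00126) and 0.80 in cKO (SE 0.17, adjusted p = 0.00782), and the cKO call was lost without cKO 0 h replicate 1 (0.59, adjusted p = 0.0511). The kinase gene itself, Map3k7, differed by -0.11 and 0.18, Tab1, its activating subunit, by -0.02 and 0.02, and Tab3, the relative of Tab2, by 0.10 and 0.20. None of these 3 passed in either genotype, which does not show that they were unchanged.

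Of the 3 IKK complex genes 1 was called in each genotype, against 42.2% of all tested genes in WT and 37% in cKO. Ikbkb, the kinase subunit that phosphorylates IkB, was 10.19 and 10.02 in WT at 0 h and 10.82 and 10.64 after LPS. In cKO it went from 10.07 and 10.00 to 10.58 and 10.70, so that LPS and 0 h libraries did not overlap. It rose by 0.63 in WT (SE 0.12, adjusted p = 0.0041) and 0.60 in cKO (SE 0.12, adjusted p = 0.00598). Both calls were lost under quantile normalization (0.18, adjusted p = 0.246, and 0.24, adjusted p = 0.142), and the cKO call also without cKO LPS replicate 2 (adjusted p = 0.0548). Chuk, the other kinase subunit, differed by -0.20 and -0.09, and Ikbkg, the scaffold NEMO, by 0.12 and 0.30. Neither passed.

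Both IKK-related kinases, which phosphorylate interferon regulatory factors, rose in both genotypes. Ikbke, the inducible kinase IKKepsilon, was 10.91 and 10.94 in WT at 0 h and 11.93 and 11.85 after LPS. The cKO values were 10.29 and 10.71 at 0 h and 11.75 and 12.22 after LPS. Its cKO libraries lay below the WT libraries at 0 h and around them after LPS. It rose by 0.96 in WT (SE 0.19, adjusted p = 0.00381) and 1.48 in cKO (SE 0.19, adjusted p = 0.000532), with an interaction of 0.52 (adjusted p = 0.771). The WT call was lost under quantile normalization (0.36, adjusted p = 0.145). Tbk1 rose by 0.91 and 0.94 (adjusted p = 0.000503 and 0.000547).

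**Figure D2:**
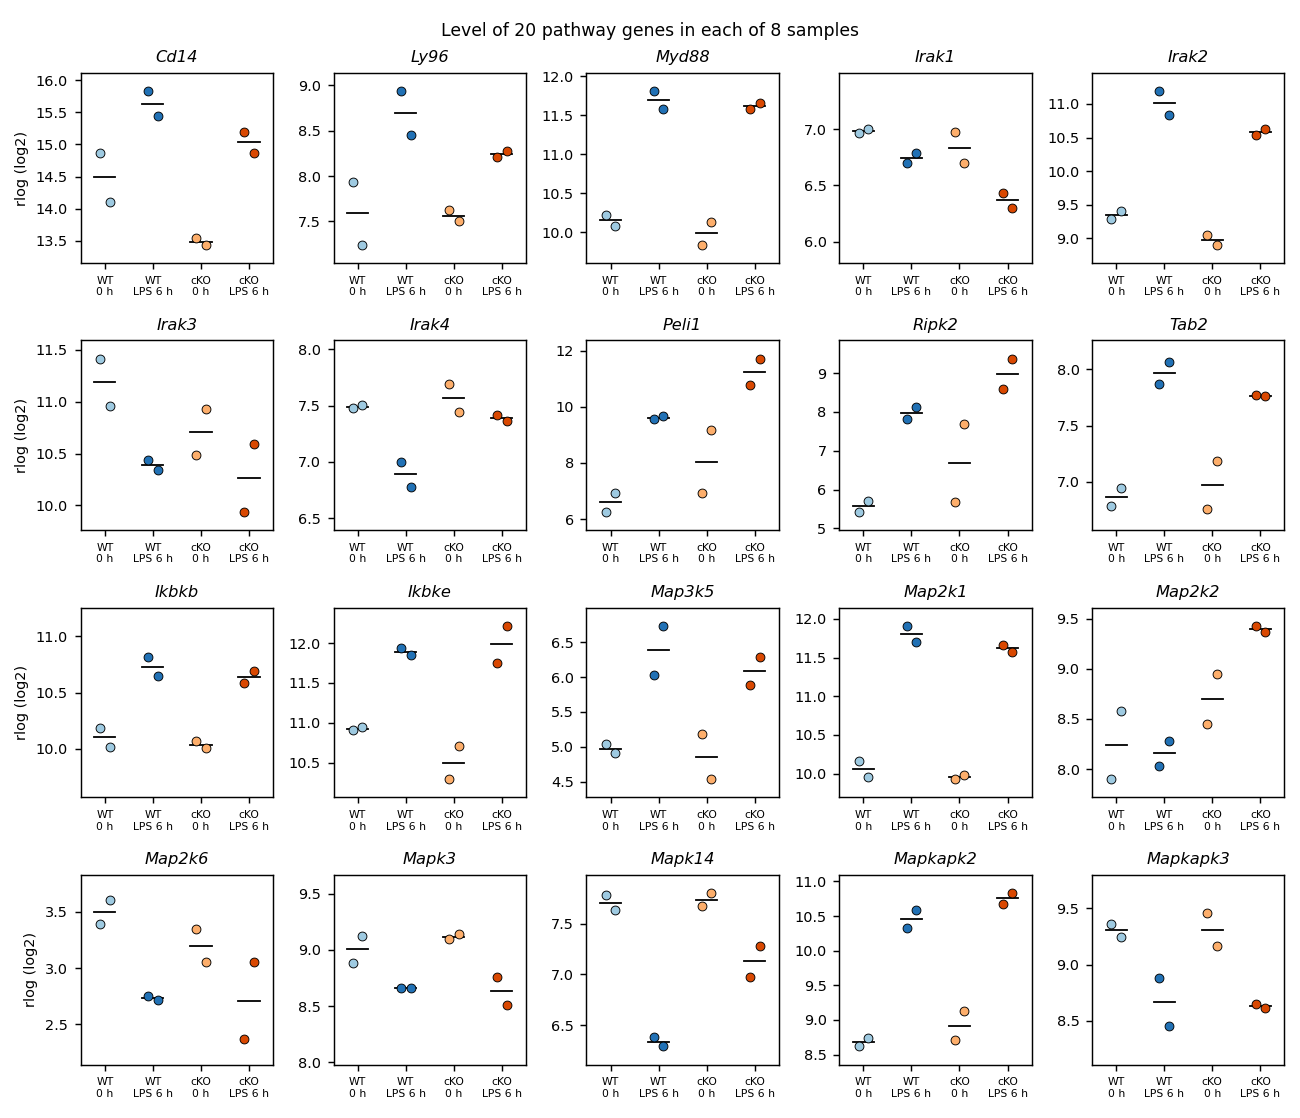
Level of 20 members in each of the 8 samples: each panel is a gene, the vertical axis is rlog (log2) with its own range, points are the 2 samples of a group and the line is their mean. The Peli1 and Ripk2 panels show the gap of 2.25 and 2.01 between the cKO samples at 0 h, and the Mapk14 panel shows the WT samples after LPS below all others.

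At the top of the MAP kinase cascades, the MAP3 kinase genes Map3k5 and Map3k8 rose. Map3k7, given above with the TAK1 complex, passed in neither genotype. Map3k5, the stress-activated kinase ASK1, was 5.03 and 4.91 in WT at 0 h and 6.03 and 6.74 after LPS. Levels in cKO were 5.18 and 4.54 at 0 h and 5.88 and 6.28 after LPS. LPS and 0 h libraries were apart in both genotypes. It rose by 1.41 in WT (SE 0.30, adjusted p = 0.00566) and 1.22 in cKO (SE 0.30, adjusted p = 0.0129), and the cKO call was lost without cKO 0 h replicate 2 (0.90, adjusted p = 0.0784) or cKO LPS replicate 2 (1.03, adjusted p = 0.0926).

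Map3k8, the kinase TPL2 that feeds the ERK branch, rose by 0.62 in WT (adjusted p = 0.00912) and 0.44 in cKO (adjusted p = 0.0437). Quantile normalization ended both calls (0.14, adjusted p = 0.462, and 0.06, adjusted p = 0.774). The cKO call was also lost without WT 0 h replicate 1 or replicate 2 (adjusted p = 0.0603 and 0.0604), cKO 0 h replicate 1 (adjusted p = 0.226), cKO LPS replicate 1 (adjusted p = 0.0725) or cKO LPS replicate 2 (adjusted p = 0.244), and in the authors' deposited table (adjusted p = 0.102).

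Of the 6 MAP2 kinase genes 2 rose in both genotypes and 1 fell in WT. These calls were 50% of the 6 in WT and 33.3% in cKO, near the 42.2% and 37% of all tested genes. Map2k1, the kinase MEK1 upstream of ERK, was 10.16 and 9.96 in WT at 0 h and 11.91 and 11.70 after LPS. Levels in cKO went from 9.93 and 9.98 to 11.67 and 11.58. Its samples were close to each other within every group. The rise was 3.36-fold in WT (1.75, SE 0.13, adjusted p = 2.97e-05) and 3.18-fold in cKO (1.67, SE 0.13, adjusted p = 5.65e-05).

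Its paralog Map2k2, the kinase MEK2, was 7.90 and 8.58 in WT at 0 h and 8.03 and 8.28 after LPS. In cKO it was 8.45 and 8.95 at 0 h and 9.43 and 9.37 after LPS. WT libraries overlapped between times, while the cKO libraries after LPS lay above all 6 others. The LPS difference was -0.08 in WT (adjusted p = 0.81) and 0.70 in cKO (SE 0.24, adjusted p = 0.0522). The cKO value passed in the authors' deposited table (log2 fold change 0.75, adjusted p = 0.0198) and without WT 0 h replicate 1 (adjusted p = 0.0247), WT 0 h replicate 2 (adjusted p = 0.0249) or cKO 0 h replicate 2 (adjusted p = 0.0354).

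Map2k4, the kinase MKK4 upstream of JNK, rose by 0.86 in WT and 0.85 in cKO (adjusted p = 0.0159 and 0.0193). Its WT call was lost without WT 0 h replicate 1 (adjusted p = 0.101) or WT LPS replicate 1 (adjusted p = 0.0631). Its cKO call was lost without cKO 0 h replicate 1 (0.55, adjusted p = 0.114), cKO LPS replicate 1 (adjusted p = 0.051) or cKO LPS replicate 2 (adjusted p = 0.119). Map2k7, the other kinase of JNK, differed by -0.09 and 0.38, and Map2k3, a kinase of p38, by 0.36 and 0.44, and neither passed in either genotype. Map2k7 passed in cKO without cKO 0 h replicate 2 (0.63, adjusted p = 0.0448), and Map2k3 in WT without WT LPS replicate 2 (0.57, adjusted p = 0.0496).

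Map2k6, another kinase of p38, was a gene of low level. Its mean over all samples was 3.03, just above the limit of 3 for testing. That limit was reached through the 0 h libraries, while both WT LPS libraries lay below it. The WT fall given below is therefore not independent of the filter. With no filter on low values it did not pass (limma adjusted p = 0.127). Map2k6 was 3.39 and 3.60 in WT at 0 h and 2.75 and 2.72 after LPS. The cKO values were 3.34 and 3.05 at 0 h and 2.37 and 3.05 after LPS, with a wide gap between the LPS samples. The WT fall of 0.76 (SE 0.25, adjusted p = 0.0393) was lost without any 1 of the 4 WT libraries (adjusted p = 0.0801 to 0.159) and in the authors' deposited table (adjusted p = 0.238). The cKO difference was -0.49 (adjusted p = 0.167), and it passed without cKO LPS replicate 2 (-0.83, adjusted p = 0.0497).

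The MAP kinases themselves did not move together. Mapk14, the gene of p38alpha, was 7.78 and 7.63 in WT at 0 h and 6.38 and 6.29 after LPS. Levels in cKO were 7.67 and 7.80 at 0 h and 6.98 and 7.28 after LPS. Both genotypes were level at 0 h, and after LPS the WT libraries were the lowest of all. The fall was 2.58-fold in WT (-1.37, SE 0.16, adjusted p = 0.000247) and 1.52-fold in cKO (-0.61, SE 0.16, adjusted p = 0.0172). The cKO call was lost without cKO 0 h replicate 2 (-0.54, adjusted p = 0.0884) or cKO LPS replicate 1 (-0.46, adjusted p = 0.12), and in the authors' deposited table (adjusted p = 0.0866).

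Mapk9, the kinase JNK2, rose by 1.19 in WT and 0.81 in cKO (adjusted p = 0.000864 and 0.00707). Its relative Mapk8, the kinase JNK1, differed by 0.27 and 0.43 and passed in neither. Mapk3, the kinase ERK1, was 8.89 and 9.12 in WT at 0 h and 8.66 and 8.66 after LPS. The cKO values went from 9.09 and 9.14 to 8.76 and 8.51. All 4 LPS libraries lay below the 0 h libraries. It fell in cKO (-0.48, SE 0.14, adjusted p = 0.025), and the WT difference was -0.35 (adjusted p = 0.0745), which passed under quantile normalization (-0.49, adjusted p = 0.0245). The cKO call was lost without cKO 0 h replicate 1 (adjusted p = 0.0761), cKO 0 h replicate 2 (adjusted p = 0.0972) or cKO LPS replicate 2 (adjusted p = 0.174), and in the authors' deposited table (adjusted p = 0.0947).

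The kinases that p38 activates went opposite ways. Mapkapk2, the kinase MK2 that stabilises cytokine mRNAs, was 8.62 and 8.74 in WT at 0 h and 10.33 and 10.59 after LPS. In cKO it went from 8.70 and 9.12 to 10.68 and 10.83. The rise was 3.44-fold in WT (1.78, SE 0.17, adjusted p = 8.5e-05) and 3.59-fold in cKO (1.84, SE 0.17, adjusted p = 0.000103). Its paralog Mapkapk3, the kinase MK3, was 9.36 and 9.25 in WT at 0 h and 8.88 and 8.45 after LPS. Levels in cKO went from 9.46 and 9.16 to 8.65 and 8.61, again with no overlap.

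Mapkapk3 fell by 0.64 in WT (SE 0.17, adjusted p = 0.0161) and by 0.68 in cKO (SE 0.17, adjusted p = 0.014). The WT call was lost without WT 0 h replicate 1 (adjusted p = 0.0832) or WT LPS replicate 2 (adjusted p = 0.0834). The cKO call was lost without cKO 0 h replicate 1 (adjusted p = 0.0875), cKO LPS replicate 1 (adjusted p = 0.0632) or cKO LPS replicate 2 (adjusted p = 0.0784).

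The next question was whether loss of PTIP altered the relay in resting macrophages. Of the 40 members 0 passed with limma in cKO against WT at 0 h, where 0.251% of all tested genes did (0.052% higher and 0.199% lower), and 5 had an unadjusted p under 0.05, as did 1256 of all 11543 genes. These were Cd14 (-1.0), Ticam1 (-0.50), Irak2 (-0.37) and Tbk1 (-0.46), all lower in cKO, and Peli1 (1.45). For Cd14 the 95% confidence interval was -1.62 to -0.38 (adjusted p = 0.235), and the authors' deposited table called it lower (log2 fold change -1.14, adjusted p = 0.00455), the only member among 1.52% of all tested genes. For Peli1 (adjusted p = 0.455) and Ripk2 (1.12, adjusted p = 0.515) the result turned on which cKO 0 h library was kept. Without replicate 1 they were higher in cKO by 2.58 and 2.13. Replicate 1 itself was 6.92 for Peli1 and 5.68 for Ripk2, near the WT means of 6.59 and 5.57.

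The data bounded most resting differences on the rlog scale, without showing that the genotypes were alike. That scale understates the change of low genes, so their full difference is not bounded. The confidence interval, not adjusted for the number of genes, lay within 1 log2 unit on either side of 0 for 35 of 40 members. Myd88 differed by -0.17 (-0.50 to 0.16), Irak4 by 0.08 (-0.27 to 0.43), Ikbkb by -0.07 (-0.35 to 0.22), Map2k1 by -0.10 (-0.40 to 0.19) and Mapk14 by 0.03 (-0.33 to 0.39). The plot of genotype differences shows these intervals for every tested member. At 0 h the WT and cKO libraries did not overlap for 13 of 40 members and 41.2% of all genes tested.

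**Figure D3:**
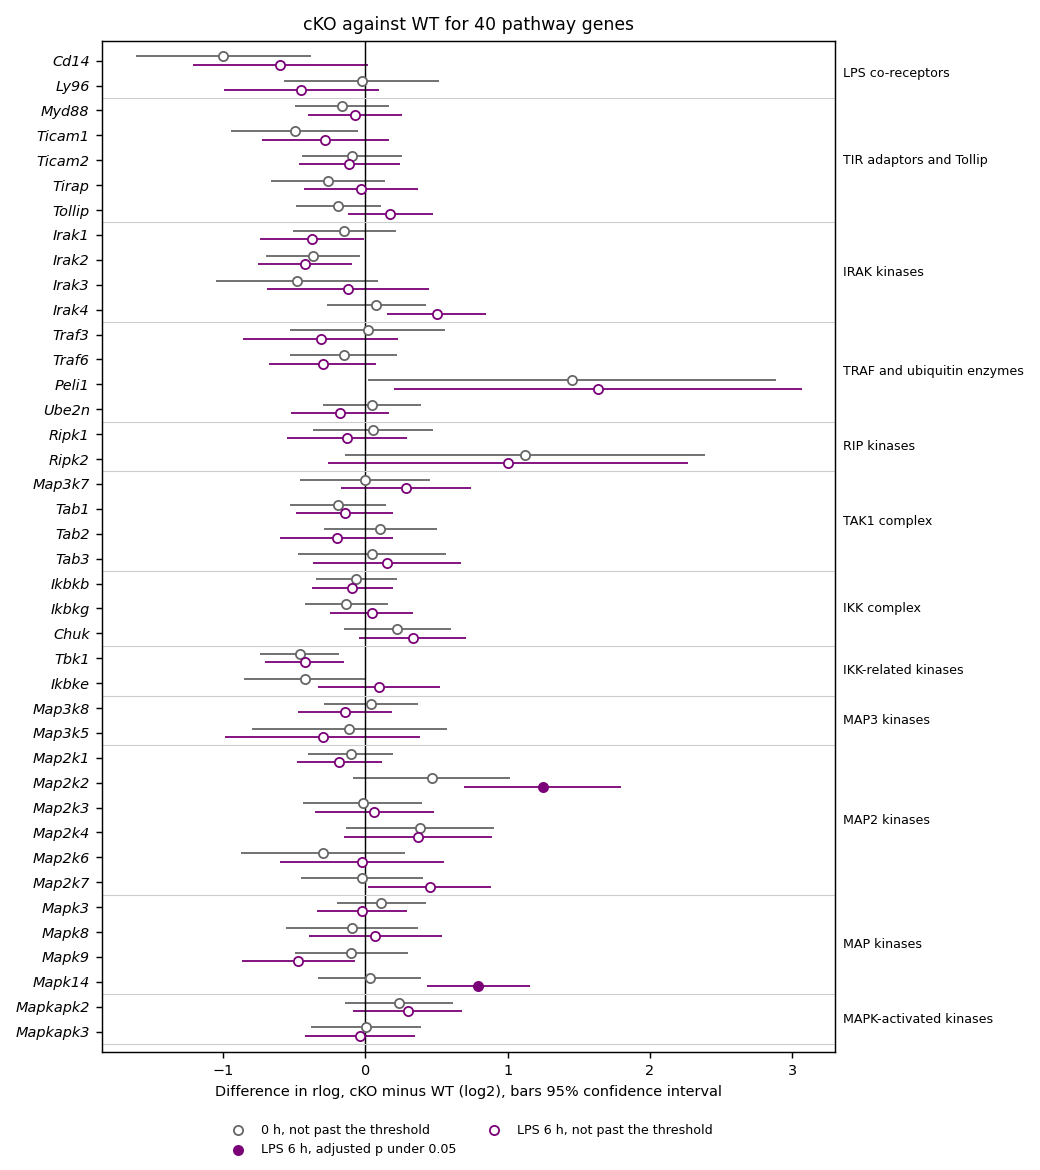
Difference between cKO and WT for the 40 tested genes: the horizontal axis is the difference in rlog (log2), cKO minus WT, grey at 0 h and purple after 6 h of LPS, with bars of the 95% confidence interval. Filled points passed the threshold: Map2k2 (1.24) and Mapk14 (0.79), both after LPS.

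After LPS 2 of 40 members passed in cKO against WT, both higher in cKO, against 1.51% of all tested genes higher and 2.46% lower (3.97% in either direction). Map2k2 was 9.43 and 9.37 in cKO and 8.03 and 8.28 in WT, a 2.37-fold difference (1.24, SE 0.24, adjusted p = 0.0328). Mapk14 was 6.98 and 7.28 in cKO and 6.38 and 6.29 in WT, a 1.73-fold difference (0.79, SE 0.16, adjusted p = 0.0348). The WT and cKO libraries did not overlap in either gene, as in 22 of 40 members and 53% of all genes tested. The authors' deposited table called Map2k2 higher (log2 fold change 1.44, adjusted p = 2.64e-06) but not Mapk14 (log2 fold change 1.04, adjusted p = 0.114).

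Both calls were close to the threshold. Leaving out WT LPS replicate 1, WT LPS replicate 2, cKO LPS replicate 1 or cKO LPS replicate 2 gave adjusted p-values of 0.138, 0.0613, 0.159 and 0.202 for Map2k2, whose difference stayed between 1.12 and 1.37. The same 4 omissions gave 0.111, 0.086, 0.11 and 0.243 for Mapk14, with differences of 0.64 to 0.95. Under quantile normalization the adjusted p was 0.0535 for Map2k2 and 0.0537 for Mapk14, and the split over all genes changed from 174 higher and 284 lower to 115 higher and 120 lower.

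The interaction of genotype and LPS was 0.76 for Mapk14 (95% confidence interval 0.25 to 1.28, limma adjusted p = 0.682). For Map2k2 it was 0.78 (-0.0037 to 1.56, limma adjusted p = 0.764). Neither gene was therefore shown to respond to LPS differently in cKO.

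Peli1 and Ripk2 were also higher in both cKO libraries after LPS than in either WT library. The differences were 1.64 (adjusted p = 0.176) and 1.003 (adjusted p = 0.335). The authors' deposited table called both higher, with log2 fold changes of 1.93 (adjusted p = 2.77e-08) and 1.24 (adjusted p = 0.00432), so that it called 3 members and 5.59% of all tested genes. Without cKO 0 h replicate 1 or replicate 2, Peli1 passed (adjusted p = 0.0328 and 0.0331). With only the samples after LPS fitted, Peli1 also passed (adjusted p = 0.0306). Each of these fits leaves the gap of 2.25 between the cKO 0 h libraries out of the variance estimate.

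Members next in order, by unadjusted p, did not pass: Tbk1 (-0.43, adjusted p = 0.0852), Irak4 (0.50, adjusted p = 0.101) and Irak2 (-0.43, adjusted p = 0.134). Over all members the median difference was -0.06, beside -0.03 over all genes tested, and 35 of 40 confidence intervals lay within 1 log2 unit of 0.

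A further 86 genes of the same pathway were described as lists, and 74 of them were tested. LPS raised 41 and lowered 13 of these in WT, and raised 37 and lowered 15 in cKO. Of all tested genes 22.5% were higher and 19.7% lower in WT, and 19.6% and 17.5% in cKO. In WT the receptor list had 9 rises and 2 falls among 14 tested genes. They included Tlr3 (3.51), a receptor for double-stranded RNA, Tlr1 (1.89), Cnpy3 (-0.99), a receptor chaperone, and Tlr13 (-0.57). Tlr4, named here because it is the LPS receptor, differed by -0.41 and did not pass.

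The list of other TRAFs, scaffolds and ubiquitin enzymes had 9 rises and 3 falls among 16. Traf1 rose by 3.44 and Rnf31, a subunit of the linear ubiquitin ligase, by 2.52, while Peli2, the relative of Peli1, fell by 1.30 and Ecsit by 1.22. Among 15 other MAP kinase cascade genes 2 rose and 4 fell. Rps6ka4 and Rps6ka3, kinases downstream of MAP kinases, rose by 1.07 and 0.91, and Map3k1 fell by 2.13 and Mknk2 by 1.58.

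Of 15 inhibitors 12 rose, led by the phosphatase gene Dusp16 (2.70) and the IkB gene Nfkbib (2.57), and Sigirr fell (-0.74). Of 14 transcription factors 9 rose, such as Irf7 (2.65) and Nfkb2 (2.104), and 3 fell, among them Jun (-1.41) and Fos (-1.28).

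In cKO against WT at 0 h, 2 of these 74 genes passed, against 0.251% of all tested genes, both lower: Jun (-2.22, adjusted p = 0.0389) and Dusp1 (-1.71, adjusted p = 0.0347), the phosphatase that switches off p38 and JNK. After LPS 6 were lower and 1 higher, against 2.46% and 1.51% of all tested genes. The lower genes were Tlr1 (-1.49), Dusp1 (-1.51), Tank (-0.95), a scaffold of TBK1, Tlr9 (-0.94), Tlr8 (-0.76) and Cyld (-0.66), a deubiquitinase. Socs1, a feedback inhibitor, was higher (1.13). In the interaction 0 passed with limma and 7 had an unadjusted p under 0.05, as did 751 of all 11543 genes.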

How the data were processed

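Poly(A) RNA libraries of 8 samples were sequenced after 15 PCR cycles, per the labels' protocols. Per the submitters' processing notes the tools were CASAVA, HISAT2 2.1.0, featureCounts and DESeq2 with the build GRCm38, and no roles or settings are listed. Annotation, strand setting and the handling of multi-mapped reads: not given in the sources used here. The authors deposited 1 table of log2 values, named as rlog output, with their own log2 fold changes and p-values for 4 comparisons, per the file headers. Values ran from -2.31 to 19.31, and 26727 of 55226 genes were listed at 0 in every sample. Depth is unknown.

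The test covered the 11543 genes whose mean rlog reached 3. In R 4.3.3, limma 3.58.1 fitted the 4 group means to the 8 samples together, with a variance trend and 4 residual degrees of freedom, and 5 comparisons were made. The fit was also run on simulated data with independent noise and few changed genes. Many genes changed with LPS in the real data, so that run does not check the comparisons made here. The threshold was an adjusted p of 0.05. The members and lists were chosen with earlier results of these data known. Values in every sample are given for 20 members: the co-receptors, those called between genotypes, the 5 largest called rises and falls per LPS comparison, and the member of each role with the largest WT change. Those of Map2k7 are also given, since both its LPS libraries lay below the 0 h libraries in WT and above them in cKO. Positions are from GENCODE M21 (GRCm38), and sequences are from RefSeq (GRCm38.p6). Motif letters were set after longer forms of the interferon and NF-kB motifs had been searched. By the GENCODE annotation, exons of 8 members overlap a gene on the opposite strand, among them Irak2, Irak3, Irak4 and Ikbke, and exons of 4 members, Map2k7 among them, overlap a gene on the same strand, so their reads are uncertain. Alternatives covered the filter, the variance model, scaling, replicate numbers, the samples fitted and each library left out.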

Additional observations from a re-analysis of the deposited data

Results flagged for a closer look

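Map2k7, the kinase MKK7 upstream of JNK, had LPS differences of opposite sign in the 2 genotypes, and neither passed the threshold. The differences of Tirap, Tollip, Tab1, Map3k7 and Map2k2 also had opposite signs, but their libraries overlapped in at least 1 genotype. For Map2k7 they did not. Within a genotype such a lack of overlap was common, at 71.3% of all genes tested in WT and 72.5% in cKO. The share of genes apart in opposite directions was not counted. Map2k7 was 6.73 and 6.72 in WT at 0 h and 6.63 and 6.63 after LPS, so that both LPS libraries lay below both 0 h libraries. In cKO it was 6.45 and 6.94 at 0 h and 6.99 and 7.17 after LPS, so that both LPS libraries lay above. The difference between these responses was 0.47 (95% confidence interval -0.13 to 1.08), with an adjusted p = 0.779 in limma's interaction test. Its exons share bases with the annotated gene Gm49320 on the same strand.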

How the results depend on the processing

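No member reversed direction with a call under any alternative. In every alternative that could be fitted, 12 of 19 rises and 1 of 5 falls (Mapk14) kept their call in WT. In cKO 10 of 17 rises and 0 of 4 falls did. Not every lost call is named with its gene above. With no filter on low values, WT calls were lost for Cd14, Irak3, Ube2n, Ripk2, Map2k4, Map2k6 and Mapkapk3. Calls in cKO were lost there for Irak1, Traf3, Ripk2, Map3k8, Map3k5, Map2k4, Mapk3 and Mapkapk3. Members called for LPS in WT numbered 19 to 23 with a library left out, against 24. For LPS in cKO they numbered 13 to 21, against 21, the 13 without cKO LPS replicate 2, and 13 with no filter on low values, which tests more genes. At 0 h the count of 0 was 0 to 2 with a library left out and 1 in the authors' deposited table. After LPS the count of 2 was 0 to 3 with a library left out, 0 with no filter on low values, 1 with no variance trend and 0 under quantile normalization. Leaving out a library assumes that the lone sample varies like the other groups. Over all genes, quantile normalization cut the genotype calls after LPS from 458 to 235. The labels do not say what a replicate number marks. Deviations of same-numbered samples correlated at 0.22 within WT and 0.31 within cKO, and across genotypes at -0.04 (both 0 h), 0.08 (WT 0 h, cKO LPS), 0.19 (WT LPS, cKO 0 h) and 0.20 (both LPS). Both values within a genotype were over 0.1, while not every value across genotypes was. Since the labels name no pairs, numbers were not taken as pairs in the main fit. With the replicate number as a block the calls were 24 for LPS in WT, 23 for LPS in cKO, 0 at 0 h, 2 after LPS and 0 for the interaction. With genotype and number together as a block the LPS counts were 25 and 24 and the interaction 0. Under the number block Ly96 and Map2k2 gained a call for LPS in cKO (adjusted p = 0.0238 and 0.0172), and under the genotype and number block also (0.00617 and 0.0156), with Irak3 in cKO (0.0341) and Traf6 in WT (0.0423). How precise the values of low genes such as Map2k6 and Tab3 are cannot be read without counts.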
